A study of Homo sapiens with 6 samples.

Results

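USH1C, the gene of the scaffold protein harmonin, and 9 genes of proteins that bind harmonin or work beside it in microvilli were followed across 6 RNA sequencing libraries. The 10 genes were chosen by name out of 58735 in the table: USH1C, USH1G, MYO7A, MYO7B, CDHR2, CDHR5, ANKS4B, CDH23, PCDH15 and EZR. USH1C was taken because its rise with the inhibitor was the largest among protein-coding genes, so its values are a description with no test; the 9 partners were taken for what their proteins do. The label of all 6 is BxPC-3, an established line of human pancreatic adenocarcinoma cells, grown in RPMI-1640 with serum. Of these, 3 had received DMSO and 3 GSK3326595, which blocks the arginine methyltransferase PRMT5. The labels used here give neither the dose nor how long it was applied. The series concerns PRMT5 and the Hippo kinase MST2; its design text speaks of a knockdown of PRMT5, whereas the sample labels name the inhibitor, and the labels are followed.

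Harmonin carries PDZ domains, which hold the tails of membrane proteins and other scaffolds. In the brush border of intestine and kidney it joins ANKS4B and the motor MYO7B beneath the cadherins CDHR2 and CDHR5, which link the tips of neighbouring microvilli. In the hair bundles of the inner ear it works with a parallel set, the scaffold USH1G (SANS), the motor MYO7A and the tip-link cadherins CDH23 and PCDH15, and mutations in these genes cause Usher syndrome. Ezrin, encoded by EZR, ties the membrane of microvilli to their actin core. These roles are background and not results of these libraries.

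The whole table gives the setting. The libraries held 14087260 to 15724750 reads, recovered from the deposited FPKM (fragments per kilobase, set relative to the size of each library). Nothing in the labels ties replicates to separate cultures, and p-values therefore reflect the spread between these samples alone, which may be technical. Inhibitor replicate 2 stood apart: across genes, its log2 values had r = 0.906 and r = 0.904 with inhibitor replicates 1 and 3, against r = 0.980 between these 2, and mitochondrially encoded genes took 11.3% of its reads against 4.70% to 6.03% elsewhere. Genes under 1500 bases took 1.09% of its reads from nuclear protein-coding genes, against 2.27% to 2.61% elsewhere. PRMT5 transcript was 24.7 ± 1.501 FPKM under DMSO and 12.7 ± 0.611 FPKM under inhibitor (SD, n = 3 each). It was lower by a log2 fold change of −0.90 (limma, adjusted p = 0.00493). The markers did not all match the label. The ductal keratin KRT19 and CEACAM6 had 0 reads in every library, where 3 reads over the 3 DMSO libraries, the limit a count of 0 allows, are 0.0285 and 0.0218 FPKM. EPCAM and CDH1, of epithelial adhesion, stood at 0.211 and 0.118 FPKM in DMSO, while KRT8, KRT18 and KRT7 stood at 264, 255 and 163 FPKM. BxPC-3 is known for loss of CDKN2A and SMAD4, and both had reads here, at 107 and 3.64 FPKM in DMSO. The libraries are therefore named by their labels only.

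Harmonin transcript was scarce in DMSO and plentiful with the inhibitor. USH1C (ENSG00000006611, chromosome 11, 17493895 to 17544416, minus strand, hg38) had 0.717, 0.738 and 1.21 FPKM in DMSO replicates 1 to 3; inhibitor replicates 1 to 3 had 14.3, 12.5 and 15.7 FPKM. The lowest inhibitor library lay far above the highest DMSO library, and inhibitor replicate 2, which stood apart in other respects, was the lowest of its group. The reads behind these values were 55, 53 and 88 in DMSO and 1151, 819 and 1253 with the inhibitor, a ratio of 16.1 after scaling (95% exact interval 13.9 to 18.7). Such intervals cover counting error at most. They use reads summed over the 3 libraries of a group, so the spread between libraries is left out. Reads made by PCR are not independent molecules, so even counting error may be understated. In DMSO 47.5% of protein-coding genes had a lower mean than USH1C, and with the inhibitor 85.1% had.

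The size of this rise on a log scale depended on the constant added to FPKM before taking logs. At log2(FPKM + 1), the scale used for all tests here, which understates the change of low genes, it was 3.01 (SE 0.15), and 3.09 without inhibitor replicate 2. The next protein-coding gene was ALPI at 2.52. Ahead of USH1C were 2 genes without a protein product, LINC02593 at 3.10 and AC097478.1 at 3.03, so that it ranked 3 of 13578 genes tested. At log2(FPKM + 0.1) its rank among all genes tested was 12. With limma-voom on the recovered reads its rank was 38 of 21998, and 20 among protein-coding genes. That fit adds its own small constant to the reads and takes in more genes with few reads, so these ranks are over unlike sets of genes.

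RefSeq lists 2 starts for USH1C, and the deposited values are per gene, so they do not say which was used. Both 300-base windows, 250 bases before to 50 after each start in GRCh38.p14, are shown because this is the gene with the large change; capitals mark CG dinucleotides, the sites of DNA methylation. The first lies at chr11:17544367-17544666 and the second at chr11:17533836-17534135, both read on the minus strand.
USH1C start 1: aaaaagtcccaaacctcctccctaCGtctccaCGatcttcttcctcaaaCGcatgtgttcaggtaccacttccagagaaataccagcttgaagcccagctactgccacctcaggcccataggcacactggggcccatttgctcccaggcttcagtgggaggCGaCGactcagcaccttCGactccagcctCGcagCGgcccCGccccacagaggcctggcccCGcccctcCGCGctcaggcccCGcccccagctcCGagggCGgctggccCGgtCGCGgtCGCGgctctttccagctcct
USH1C start 2: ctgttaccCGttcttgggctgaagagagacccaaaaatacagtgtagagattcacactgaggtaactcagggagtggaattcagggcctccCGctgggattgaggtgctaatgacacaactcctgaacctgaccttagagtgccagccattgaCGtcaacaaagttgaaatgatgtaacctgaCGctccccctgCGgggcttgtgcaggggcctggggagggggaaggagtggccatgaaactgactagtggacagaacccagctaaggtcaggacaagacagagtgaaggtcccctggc
The window of start 1, whose start coincides with the end of the listed gene, held 20 CG dinucleotides and 65.0% G and C, against a median of 14 and 58.7% over the 35116 windows of the same length in the RefSeq table. The window of start 2, inside the gene, held 5 and 54.0%. Motifs for 6 kinds of transcription factor were searched on both strands: the letters GTTAAT for HNF1, CAAAGTCCA for HNF4, TTTAT for CDX, AGATAA for GATA factors, GGAATG for TEAD and TGANTCA for AP-1. None of these letters occurred in either USH1C window, which says nothing about the factors themselves. Of all windows, 6.88% held the HNF1 letters, 0.384% those of HNF4, 34.9% those of CDX, 10.3% those of GATA factors, 14.0% those of TEAD and 7.71% those of AP-1. Among the 13 windows found for 7 of the 10 genes, the HNF1 letters occurred in windows of CDHR2 and ANKS4B, those of CDX in MYO7B and PCDH15, those of TEAD in MYO7B and ANKS4B, and those of AP-1 in EZR.

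Most of the partners were barely expressed in either group. Of the 9 partners, 2 passed the filter of at least 1 FPKM in 3 of the 6 libraries (EZR and CDHR5), and the other 7 stayed under 1 FPKM in every library. Neither of the 2 was called by limma at an adjusted p under 0.05, against 17.2% of all genes tested (7.18% higher and 10.0% lower), and neither had an unadjusted p under 0.05. With limma-voom, which takes in 8 of the 9, none was called and 3 had an unadjusted p under 0.05, where 14.1% of the 21998 genes fitted were called (7.11% higher and 7.04% lower). Without inhibitor replicate 2, a choice made with the values known, limma called 1 of the 2, CDHR5, higher (40.6% of all genes called, 17.5% higher and 23.1% lower), and limma-voom called 4 of the 8, 3 higher and 1 lower (36.1% called, 18.7% higher and 17.4% lower). The groups of neither EZR nor CDHR5 were free of overlap, as 45.9% of genes tested were.

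**Figure D1:**
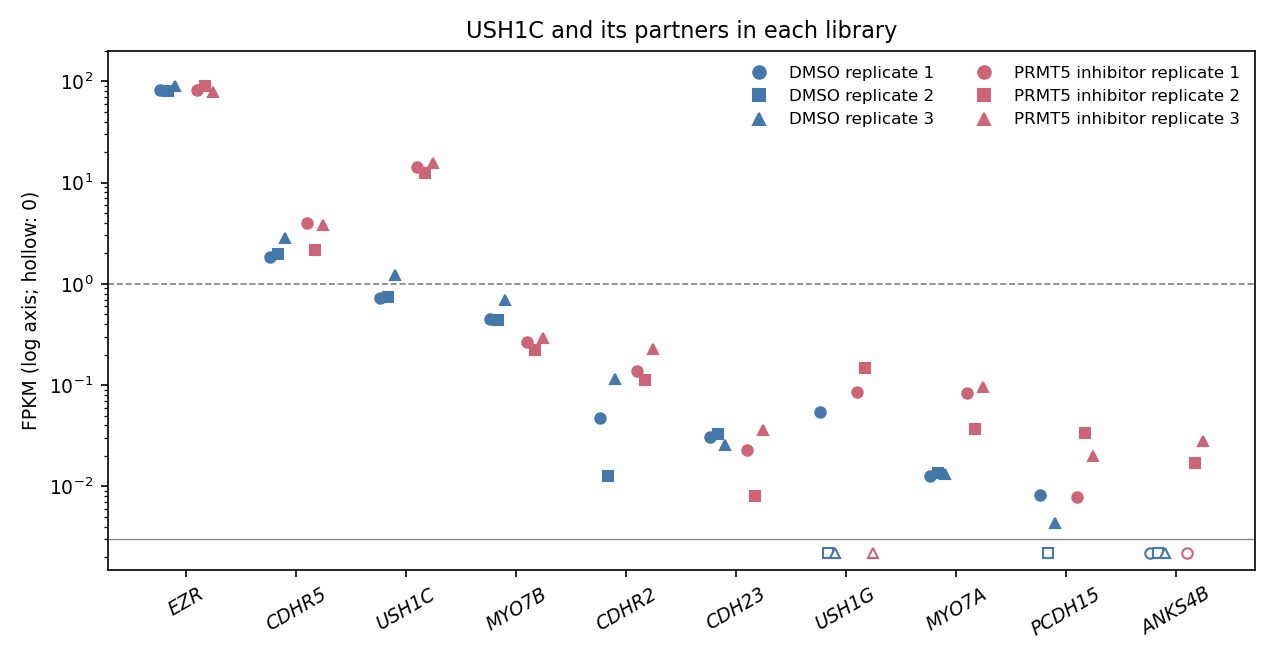
FPKM of the 10 genes in each library on a log axis, ordered by mean in DMSO, with 1 FPKM dashed and values of 0 drawn hollow below the line. EZR is level between groups, USH1C moves from 0.717 to 1.21 FPKM up to 12.5 to 15.7 FPKM, and 7 partners stay under 1 FPKM throughout.

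Of the brush-border cadherins only CDHR5 was expressed above 1 FPKM. CDHR5, also called mucin-like protocadherin (ENSG00000099834, chromosome 11, 616565 to 626078), had 1.85, 1.96 and 2.84 FPKM in the DMSO libraries, and 3.95, 2.18 and 3.78 FPKM in the inhibitor libraries. Inhibitor replicates 1 and 3 lay above all DMSO libraries and inhibitor replicate 2 among them, so the groups overlapped. The log2 fold change was 0.41 (SE 0.22) and did not pass the test (limma, adjusted p = 0.235). Without inhibitor replicate 2 it was 0.61 (SE 0.15, limma, adjusted p = 0.0219), and over all alternatives the adjusted p ran from 0.000616 to 0.478. IRF7, an interferon regulatory factor whose gene begins 566 bases away on the same strand, went from 29.3, 27.5 and 31.9 FPKM to 116, 62.6 and 124 FPKM, with the same inhibitor library lowest; its part in the CDHR5 values was not tested.

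CDHR2, the cadherin that pairs with CDHR5 across microvilli (ENSG00000074276, chromosome 5, 176542511 to 176595974), was near the floor of detection. It had 4, 1 and 9 reads in DMSO and 12, 8 and 20 reads with the inhibitor, 0.0128 to 0.114 FPKM against 0.112 to 0.229 FPKM. The groups just overlapped, between DMSO replicate 3 and inhibitor replicate 2. The scaled ratio of reads was 2.80 (95% exact interval 1.49 to 5.56), with an adjusted p of 0.135 (limma-voom) and of 0.0371 without inhibitor replicate 2. GPRIN1, which overlaps its end on the other strand, was lower with the inhibitor (log2 fold change −0.59, limma, adjusted p = 0.0166), the opposite direction.

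The motor of the brush-border complex had fewer reads with the inhibitor. MYO7B (ENSG00000169994, chromosome 2, 127535802 to 127637729) had 0.450, 0.435 and 0.698 FPKM in the DMSO libraries, and 0.263, 0.221 and 0.293 FPKM in the inhibitor libraries. Every inhibitor library lay below every DMSO library; such a lack of overlap, in either direction, was seen for 29.7% of genes with at least 10 reads that did not pass the filter. The reads summed to 209 and 106, a scaled ratio of 0.496 (95% exact interval 0.389 to 0.630). This did not pass the test with all libraries (limma-voom, log2 fold change −0.98, SE 0.30, adjusted p = 0.0568) and did without inhibitor replicate 2 (−0.88, limma-voom, adjusted p = 0.0209). AC010976.2, an antisense gene inside MYO7B, had 11 reads in DMSO and 1 with the inhibitor; whether the authors counted by strand is not stated. ANKS4B, the scaffold between harmonin and MYO7B (ENSG00000175311, chromosome 16, 21233665 to 21253845), had 0 reads in all DMSO libraries and 0, 1 and 2 with the inhibitor. Both groups are at or under the limit of 3 reads a group, 0.0153 FPKM in DMSO, so no fold is given. CALML4, a calmodulin-like light chain of MYO7B, had 24 and 22 reads.

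The Usher partners of hair bundles were all under 0.15 FPKM. MYO7A (ENSG00000137474, chromosome 11, 77128264 to 77215241) had 2, 2 and 2 reads in DMSO and 14, 5 and 16 with the inhibitor, so its groups did not overlap. The scaled ratio was 5.71 (95% exact interval 2.38 to 16.6; limma-voom, adjusted p = 0.0634, and adjusted p = 0.00723 without inhibitor replicate 2), at a level of 0.0726 ± 0.0316 FPKM with the inhibitor (SD, n = 3). A lack of overlap like that of MYO7A, in either direction, was seen for 29.7% of genes with at least 10 reads below the filter. Of the 7 partners below the filter, 2 showed it, MYO7A and MYO7B. USH1G (ENSG00000182040, chromosome 17, 74916084 to 74923256) had 3, 0 and 0 reads in DMSO and 5, 7 and 0 with the inhibitor (scaled ratio 3.91, 95% exact interval 1.06 to 21.6). The tip-link cadherins showed no common direction. PCDH15 (ENSG00000150275, chromosome 10, 53802771 to 55627942) had 2, 0 and 1 reads against 2, 7 and 5 (ratio 4.57, 1.27 to 24.8), and CDH23 (ENSG00000107736, chromosome 10, 71396934 to 71815947) had 9, 9 and 7 against 7, 2 and 11 (ratio 0.783, 0.412 to 1.47). None of USH1G, PCDH15 and CDH23 was called by limma-voom with or without inhibitor replicate 2. VSIR, an immune checkpoint gene inside CDH23 on the other strand, had 1626 and 992 reads, against 25 and 20 for CDH23 itself.

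Ezrin was abundant and level. EZR (ENSG00000092820, chromosome 6, 158765741 to 158819412) had 82.5, 80.02 and 88.8 FPKM in the DMSO libraries, and 81.5, 90.2 and 77.4 FPKM in the inhibitor libraries. The inhibitor libraries lay on both sides of the DMSO libraries. The log2 fold change was −0.01 (SE 0.12; limma, adjusted p = 0.943, and 0.407 to 0.994 over all alternatives), and its sign turned with quantile normalization and without DMSO replicate 3 or inhibitor replicate 3. With 12623 and 12718 reads the counting error was small, and the scaled ratio was 0.986 (95% exact interval 0.962 to 1.01).

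**Figure D2:**
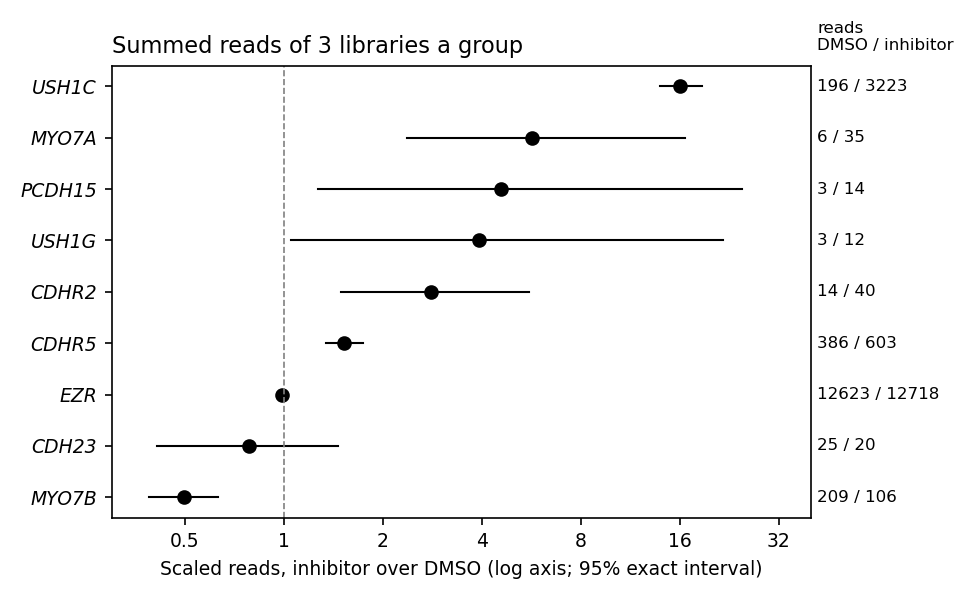
Ratio of scaled reads, inhibitor over DMSO, summed over 3 libraries a group, with the 95% exact interval on a log axis and the summed reads at the right; ANKS4B, with 0 reads in DMSO, is left out. The ratio of USH1C, 16.1, is drawn as a description, since that rise chose the gene. The ratio of MYO7B is 0.496 and that of EZR 0.986. The intervals leave out the spread between libraries, cover counting error at most and are wide for genes with few reads.

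The order of the levels within a group shows the shift of harmonin against its partners. In DMSO the order of mean FPKM was EZR, CDHR5, USH1C, MYO7B and CDHR2, and each of the first 4 lay above the next in all libraries, whereas CDHR2, CDH23 and USH1G overlapped with their neighbours. With the inhibitor USH1C stood second, above CDHR5 without overlap, and MYO7B, CDHR2, USH1G and MYO7A overlapped with their neighbours. Within single libraries USH1C was 0.377 to 0.426 times as high as CDHR5 in DMSO and 3.62 to 5.72 times with the inhibitor. Against MYO7B it was 1.59 to 1.74 times as high in DMSO and 53.5 to 56.5 times with the inhibitor. Against EZR the ratio went from 0.00869 to 0.0137 in DMSO to 0.138 to 0.202 with the inhibitor. These ratios contain the USH1C values that chose the genes and are a description.

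The gene next to USH1C also had more reads with the inhibitor. OTOG, which encodes otogelin of the acellular membranes of the inner ear, lies 2957 bases from USH1C on the opposite strand (chromosome 11, 17547373 to 17647150). The starts of both genes are their neighbouring ends, and the genes are read away from each other. OTOG had 2, 0 and 3 reads in DMSO and 48, 8 and 37 with the inhibitor, so the groups did not overlap and inhibitor replicate 2 was lowest, as for USH1C. The scaled ratio was 18.2 (95% exact interval 7.53 to 57.4), though the level stayed low at 0.180 ± 0.112 FPKM (SD, n = 3), and the test gave a log2 fold change of 3.95 (limma-voom, adjusted p = 0.0521, and adjusted p = 0.000136 without inhibitor replicate 2). OTOG was singled out after its values were seen. Among genes with at least 10 reads below the filter, 29.7% had groups without overlap, in either direction. On the other side ABCC8, a subunit of the potassium channel of beta cells, had 1, 11 and 1 reads in DMSO and 0 in all inhibitor libraries, with most of its reads from DMSO replicate 2.

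Few of the genes around USH1C could be tested. Of the 13 other genes within 250 kb, 4 passed the filter, and the one called was the antisense gene AC124798.1, lower by limma (log2 fold change −0.58, adjusted p = 0.017). NCR3LG1, NUCB2 and SERGEF, the other 3, had log2 fold changes of −0.43, 0.40 and −0.09 and were not called (limma, adjusted p = 0.143, 0.197 and 0.712). Over the neighbourhoods of all 10 genes, 7 of 90 genes tested were called higher and 6 lower, 14.4% in all, against 17.2% of all genes tested, with a median log2 fold change of −0.09 against −0.05.

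**Figure D3:**
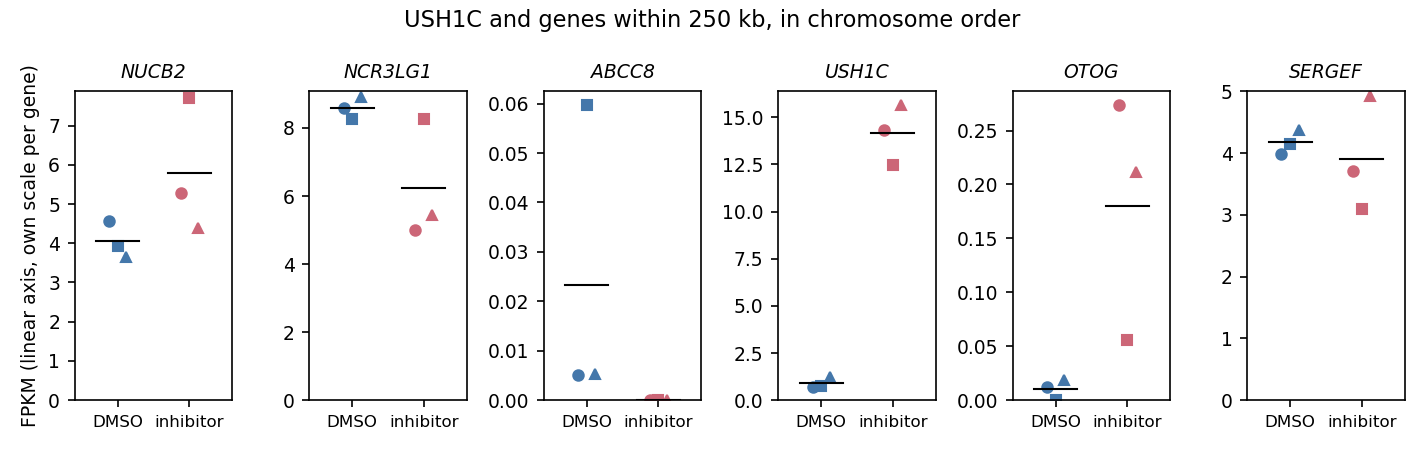
FPKM in each library for USH1C and 5 genes within 250 kb of it, in chromosome order, each on its own linear axis from 0, with bars at group means and the same symbols for replicates 1, 2 and 3 (circle, square, triangle). USH1C and its neighbour OTOG are higher in all 3 inhibitor libraries, whereas NUCB2, NCR3LG1 and SERGEF were not called.

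Other proteins of hair bundles and microvilli were called in both directions. Of the 14 Usher and hair-bundle genes listed, 4 besides USH1C passed the filter, 2 rose and 1 fell, with a median log2 fold change of 0.37, and the counts were the same without inhibitor replicate 2. Over all genes tested, the share called was 17.2% (7.18% higher, 10.0% lower), and 40.6% without inhibitor replicate 2; the counts of this and the following lists stand against these shares. ESPN, which encodes the actin bundler espin, had 3.01, 2.93 and 3.60 FPKM in the DMSO libraries, and 10.3, 6.65 and 11.7 FPKM in the inhibitor libraries. All inhibitor libraries were above all DMSO libraries (log2 fold change 1.31, SE 0.21, limma, adjusted p = 0.0113). PDZD7, a harmonin-like scaffold, rose, with means of 2.46 ± 0.478 FPKM under DMSO and 5.38 ± 1.36 FPKM under inhibitor (SD, n = 3 each; 0.87 on the log2 scale, limma, adjusted p = 0.0303). WHRN, the gene of the scaffold whirlin, fell by 1.40 on the log2 scale, from 50.2, 51.3 and 58.2 FPKM to 22.1, 12.4 and 26.6 FPKM (limma, adjusted p = 0.0192). In DMSO WHRN was the most abundant of these scaffolds, 48.03 to 69.99 times as high as USH1C within a library, and with the inhibitor the ratio was 0.996 to 1.698.

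Among 20 genes of the microvillus actin core and its motors, 13 passed the filter, 3 rose and 2 fell, with a median of −0.05, where 17.2% of all genes tested were called. Without inhibitor replicate 2 it was 5 and 2, where 40.6% of all genes were called. Besides ESPN, EPS8L2 rose by a log2 fold change of 0.50 (limma, adjusted p = 0.0397) and COBL, an actin nucleator named outside the rule, by 0.68 (limma, adjusted p = 0.0475). EPS8, which caps and bundles actin at microvillus tips, fell from 11.7, 10.98 and 11.3 FPKM to 4.53, 5.07 and 4.36 FPKM (log2 fold change −1.12, SE 0.10, limma, adjusted p = 0.0029), and its relative EPS8L1 fell by 0.64. VIL1, the gene of villin and a defining marker of the brush border, had 6 reads in DMSO, all from replicate 3, and 1 with the inhibitor.

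Among 14 genes of ERM proteins and their partners, 13 passed the filter, 1 rose and 3 fell, with a median of −0.04 (17.2% of all genes called). Without inhibitor replicate 2 it was 1 and 5, a share near that of all genes in that fit (40.6%). The ERM paralogs of ezrin were not called: MSN ranged over 130.2 to 140.1 FPKM under DMSO and 121 to 146 FPKM under inhibitor, and RDX over 12.3 to 15.6 and 17.3 to 31.6 FPKM (log2 fold change 0.60, limma, adjusted p = 0.124). PODXL, a sialomucin bound to ezrin through NHERF proteins, fell, with means of 49.6 ± 2.54 FPKM under DMSO and 19.9 ± 0.772 FPKM under inhibitor (SD, n = 3 each; −1.27 on the log2 scale, limma, adjusted p = 0.00214). CD44, a membrane partner of ERM proteins, fell from 47.5 to 20.2 FPKM and the ERM kinase gene STK10 from 13.8 to 7.80 FPKM. PDZK1, a brush-border PDZ scaffold, rose from 0.547 ± 0.0970 to 1.62 ± 0.386 FPKM (log2 fold change 0.75, limma, adjusted p = 0.0237, SD, n = 3 each). Its DMSO libraries were all under 1 FPKM, so it passed the filter only through the group in which it was higher. Its call is therefore not independent of its rise, and without a filter it was not called (limma, adjusted p = 0.0653).

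The enzymes and transporters of the brush border were mostly absent. Of 30 listed, 12 had 0 reads in all libraries, 26 stayed under 1 FPKM in every library and 3 passed the filter, of which 1 rose and 1 fell, the same counts as without inhibitor replicate 2 (17.2% and 40.6% of all genes called). ALPI, listed as intestinal alkaline phosphatase, rose from 92.04, 89.5 and 109.5 FPKM to 645, 389 and 701 FPKM (limma, adjusted p = 0.0031), but it is a close relative of ALPP and ALPG, and how the authors assigned reads that match more than one of them is not stated, so its reads are uncertain. ALPP, the placental enzyme, had 114.3, 109.7 and 116.9 FPKM in the DMSO libraries, and 163.0, 123.0 and 179.3 FPKM in the inhibitor libraries, and was not called (log2 fold change 0.43, limma, adjusted p = 0.122). ANPEP, aminopeptidase N, fell by 0.84 on the log2 scale (limma, adjusted p = 0.022). The median of these 3 genes was −0.84. Of 21 intestinal and endodermal transcription factors, 7 passed the filter, none rose and 2 fell, KLF5 by 0.77 and VDR by 0.69 on the log2 scale, with a median of −0.39 (17.2% of all genes called). Without inhibitor replicate 2, 1 rose and 4 fell (40.6% of all genes called). CDX2 had 0 reads in every library, which allows up to 3 reads a group, and HNF4A had 14 reads in DMSO and 30 with the inhibitor.

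**Figure D4:**
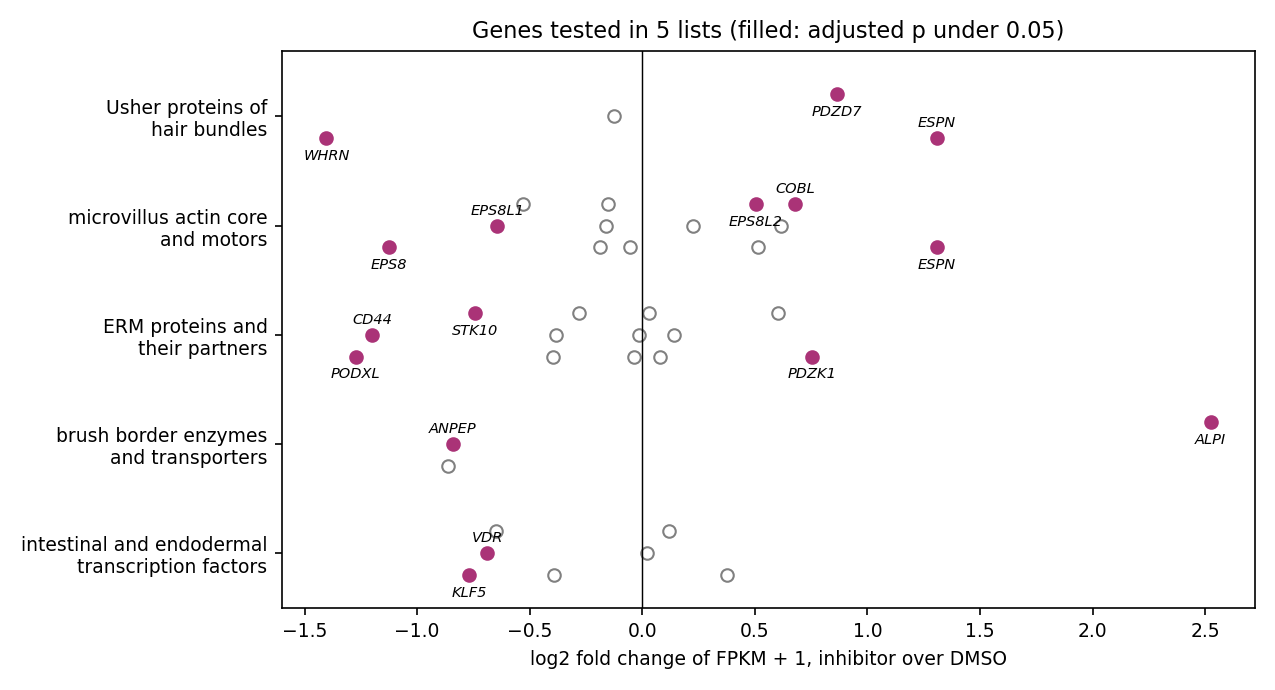
Log2 fold changes, inhibitor over DMSO, of the genes that passed the filter in 5 lists, with genes at an adjusted p under 0.05 filled and named; ESPN belongs to 2 of the lists and USH1C is not drawn. Called genes lie on both sides of 0 in every list except the transcription factors, where KLF5 and VDR are lower.

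Several of these calls rested on all libraries being present or on the settings of the fit. ALPI, EPS8, PODXL and CD44 were called without each library in turn. ESPN lost its call without DMSO replicate 1 or 2 (highest adjusted p = 0.0607), WHRN without any 1 DMSO library (0.0853), and STK10 and ANPEP without any 1 DMSO library or inhibitor replicate 1 (0.0663 and 0.0857). PDZD7, EPS8L1, EPS8L2, COBL, PDZK1, KLF5 and VDR were called in 1 of the 6 such fits, that without inhibitor replicate 2, with highest adjusted p from 0.102 to 0.161 (limma). With all libraries but no filter, PDZD7, EPS8L1, EPS8L2, COBL, PDZK1, VDR and ANPEP lost their calls (limma, adjusted p from 0.0539 to 0.109). With a replicate block EPS8L1, EPS8L2, COBL, PDZK1, KLF5 and VDR lost theirs (0.0529 to 0.084). EPS8L1 also lost its call with a pseudocount of 0.1 (0.0544) and with TPM scaling (0.0561). So did EPS8L2 with TPM scaling (0.0681), COBL without a trend (0.0504) and KLF5 with quantile normalization (0.0547).

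Markers of the labelled and of other cell types were read as lists. The 12 ductal markers had 3 at 0 in all libraries (KRT19, CEACAM6 and PDX1), 5 tested and 1 called in each direction, MUC1 higher and KRT7 lower, and 3 rose and 2 fell without inhibitor replicate 2. For all these lists the share of all genes called was 17.2%, and 40.6% without inhibitor replicate 2. The summed level of the ductal markers was 676 to 756 FPKM under DMSO and 791 to 1043 FPKM under inhibitor. Nearly all of it came from KRT7, KRT8 and KRT18. KRT8 went from a mean of 264 to 361 FPKM and KRT18 from 255 to 364 FPKM. With all libraries neither was called (limma, adjusted p = 0.12 and 0.0964), and KRT7 fell from 163 to 103 FPKM. The sum therefore does not speak for the list as a whole. Of the 12 mesenchymal markers 8 were tested and 1, PDGFRB, rose (2 higher and 1 lower without inhibitor replicate 2), with sums of 93.3 to 99.1 and 109 to 133 FPKM. Of the 9 hair-cell markers only ESPN was tested, and the others stayed under 1 FPKM. None of the 6 haematopoietic markers passed the filter, with sums of 0.483 to 1.23 and 0.978 to 1.37 FPKM. Of 13 trophoblast markers found, 6 were tested, INSL4 rose and PSG1 and PSG4 fell (2 higher and 3 lower without inhibitor replicate 2), with sums of 311 to 331 and 200.1 to 365 FPKM. PSG1 passed the filter only through DMSO, the group in which it was higher, so its call is not independent of its fall. Without a filter PSG1 was still called (limma, adjusted p = 0.0322). MUC1, PDGFRB and INSL4 were called without each library in turn. KRT7 and PSG1 kept their calls in 2 of the 6 such fits, those without inhibitor replicate 2 or 3 (highest adjusted p = 0.0843 and 0.0719, limma), and PSG4 lost its call without DMSO replicate 1 or 2 (0.0568). With limma-voom, 3 of 9 ductal markers fitted were called higher and 1 lower, and 4 of 11 mesenchymal markers higher and 1 lower. The hair-cell list had 1 of 7 higher, the haematopoietic list none of 3, and the trophoblast list 1 of 10 higher and 2 lower. Of all genes fitted by limma-voom, 14.1% were called (7.11% higher and 7.04% lower). Whether any of these lists bears on the USH1C values was not tested.

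The genes whose pattern over the 6 libraries was most like that of USH1C were named by Pearson correlation of log2(FPKM + 1). They were SLC6A8, a creatine transporter (r = 0.999), the noncoding RNA LINC00963 (r = 0.999), the transporter gene SLC29A4 (r = 0.998), SCNN1A, a subunit of the epithelial sodium channel (r = 0.998), and the membrane mucin MUC1 (r = 0.998). Their log2 fold changes were 0.99, 1.46, 2.19, 1.07 and 1.11. In 6 libraries that form 2 groups such a value mostly says that a gene differed between groups with little spread, and 506 of the 13577 other genes tested (3.73%) had r above 0.95. CDHR5 had r = 0.701 and EZR r = −0.0960 with USH1C over the same 6 libraries.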

How the data were processed

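RNA sequencing was analysed in 6 libraries, 3 per group, grouped by their titles. The authors deposited FPKM per gene, 1 column per library, with a length for each of 58735 genes. Per the labels' protocols a directional kit was used on total RNA, and the submitters' processing notes name hg38. The sources used here do not name the aligner, counter or annotation, nor whether strand was used. Multiplied by gene length and divided by 1 factor per library, FPKM gave whole reads within 0.01 for 100% of values, so reads were recovered. Replicates differed beyond sampling noise (chi-square per degree of freedom 2.55 to 113) and each counted as 1 sample.

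The test was limma 3.58.1 in R 4.3.3 on log2(FPKM + 1), with a trend, without a block and two-sided, over the 13578 genes that reached 1 FPKM in 3 or more libraries; p-values were adjusted over these by Benjamini-Hochberg, with a threshold of 0.05. limma-voom on recovered reads, scaled as the authors' values are, took in the 21998 genes with at least 10 reads; its fit without inhibitor replicate 2 was added after the data were seen. The genes, lists and alternatives were chosen with earlier results of these data known. Named by rule were all 10 genes, genes overlapping them, up to 4 called genes per list by adjusted p, and the 5 genes most like USH1C. The markers of the label and PRMT5 were named as well. Other genes complete a small count or were chosen outside the rule. Among the latter are COBL, OTOG, IRF7, CALML4, VIL1, MSN, RDX, CDX2 and HNF4A. Alternatives were pseudocounts of 0.1 and 0.5, no filter, a filter at 5 FPKM, TPM and quantile scaling, no trend, limma-voom, a replicate block and leaving out each library. With 3 against 3 samples an exact permutation test cannot go below 0.1, so none was used. Promoter windows are RefSeq's (GRCh38.p14). Python 3.11.15, pandas 2.3.3 and matplotlib 3.10.9 were used.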

Additional observations from a re-analysis of the deposited data

How the results depend on the processing

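The rise of USH1C kept its direction in all alternatives run, at 3.88 and 3.41 on the log2 scale with pseudocounts of 0.1 and 0.5, 3.61 with TPM, 4.02 with limma-voom and 4.11 with limma-voom without inhibitor replicate 2, and at 2.94 to 3.13 when 1 library was left out. EZR, which ran from −0.075 without inhibitor replicate 2 to 0.034 without inhibitor replicate 3, turned to 0.16 with quantile normalization and 0.03 without DMSO replicate 3. Of the partners 0 were called with all libraries, 0 to 1 with 1 library left out and 4 with limma-voom without inhibitor replicate 2. Genes called over the whole table were 2339, or 1533 without a filter, 1505 with the filter at 5 FPKM, 478 to 5513 with 1 library left out and 7947 with limma-voom without inhibitor replicate 2; the highest of the leave-one-out counts was without inhibitor replicate 2 and the lowest without DMSO replicate 1. For the lists the 21 calls became 7 to 35 with 1 library left out and 51 with limma-voom without inhibitor replicate 2. For the neighbours the 13 calls became 8 without a filter, 8 at 5 FPKM, 2 to 46 with 1 library left out and 63 with limma-voom without inhibitor replicate 2. The cause of these shifts was not tested. Libraries of the 2 groups share replicate numbers, but the deviations of same-numbered libraries correlated at −0.0179, 0.157 and 0.248, so the numbers were not taken to pair them; with a replicate block 1478 genes and 7 neighbours were called, and DMSO replicate 1 did not correlate best with its own number. Depth limits the 7 partners under 1 FPKM, which had 0 to 209 reads in DMSO.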

Other observations

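Of 44 genes of the lists that lay below the filter on FPKM and were fitted by limma-voom, 9 were called with all libraries. Of these, 6 were higher and 3 lower, where 14.1% of all genes fitted were called (7.11% higher, 7.04% lower). That share also takes in the genes above the filter, and the share among genes below it was not computed. All 9 follow; they were chosen after their values were seen. SLC6A19, which encodes the main transporter of neutral amino acids in the brush border of intestine and kidney, had 4 reads in DMSO and 86 with the inhibitor, a scaled ratio of 21.04 (95% exact interval 7.92 to 78.96; adjusted p = 0.00944). CFTR, the chloride channel of ductal and intestinal epithelium, had 3 and 110 reads (ratio 35.9, 11.96 to 177; adjusted p = 0.0114). KRT20, a keratin of differentiated intestinal epithelium, went from 0.242 to 0.259 FPKM in DMSO to 0.764 to 2.23 FPKM with the inhibitor (adjusted p = 0.0339), and CDH1 from 33 to 126 reads (adjusted p = 0.0118). CEACAM1 and the EPS8 relative EPS8L3 went the other way, from 127 to 43 and from 70 to 20 reads (adjusted p = 0.0283 and 0.0384). The other 3 are mesenchymal markers: COL3A1, a fibrillar collagen, had 0 reads in DMSO and 23 with the inhibitor (adjusted p = 0.013), ACTA2, smooth muscle actin, had 7 and 49 reads (adjusted p = 0.0488), and the transcription factor gene ZEB2 had 561 and 302 reads (adjusted p = 0.0229). All of these apart from KRT20 stayed under 1 FPKM in every library.

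Near the partners, CRYM, which encodes a thyroid hormone binding protein and overlaps ANKS4B on the opposite strand, had 18, 21 and 22 reads in DMSO and 2, 8 and 4 with the inhibitor (limma-voom, log2 fold change −2.26, adjusted p = 0.0297). VSIR, inside CDH23, fell by 0.64 on the log2 scale (limma, adjusted p = 0.0144). EZR-AS1, which overlaps the start of EZR on the opposite strand, had 9 and 8 reads.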
